A study of Homo sapiens with 12 samples.

Results

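The genes that encode the scaffold of the centrosome and its CEP (centrosomal protein) components were followed in A375 cells, a human BRAF-mutant melanoma line, after inhibition of CDC7 and EZH2. Members were all rows of the gene table named CEP with a number and at most 1 further letter, together with 8 genes listed by name (AKAP9, PCNT, CDK5RAP2, NIN, NINL, CROCC, ASPM and CENPJ). This gave 42 genes of 26475 in the table, and all 42 passed the filter on low counts that left 15443 tested genes. Poly-A RNA was sequenced from 4 groups of 3 biological replicates after 24 h with both compounds (GSK343+XL413, 1 µM each), with GSK343 at 1 µM, with XL413 at 1 µM, or with the solvent DMSO. XL413 inhibits CDC7, the kinase that with DBF4 activates licensed replication origins, and GSK343 inhibits EZH2, the histone H3 methyltransferase of Polycomb repressive complex 2. All groups are the same line without a genetic change, and the labels do not say whether the replicates came from separate thaws or cultures, so the p-values measure the spread between these samples.

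The centrosome is built from a pair of centrioles, barrels of microtubules, inside a pericentriolar material that holds the gamma-tubulin complexes from which microtubules grow. Centrioles are copied in S phase under the kinase PLK4, the pericentriolar material grows before mitosis under PLK1 and Aurora A, and the older centriole carries appendages with which it docks at the membrane as the base of a cilium. Many of these proteins are very long coiled coils, and loss of several of them (ASPM, CDK5RAP2, CENPJ and CEP152 among them) causes microcephaly in humans.

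The members have long transcripts. The longest annotated transcript had a median of 5656.5 nt, against 3313 nt over the 14961 tested genes with a length, and 35 of 42 members were above that value. They ranged from 2201 nt for CEP19 to 15703 nt for CEP250, which encodes a linker protein of the centriole pair. Their GC content was low, with a median of 41.5% against 48.75%, and 15 members were at or under 40%.

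Depth and library quality were as follows. Total expected counts were 31553205 to 39079931 per library, and the lowest count of a member in any library was 46, for CEP19. GSK343+XL413 replicate 2 stood apart: relative to its 2 fellow replicates, its log2 CPM scattered with an SD of 0.277 over 12364 genes, where the 11 remaining libraries had 0.134 to 0.178. Longer transcripts were lower in it, with a Spearman's rho between length and deviation of −0.64 (n = 12164 genes, which are not independent replicates). Length trends were also present in the other groups, where rho ranged from −0.45 for GSK343 replicate 1 to 0.52 for GSK343 replicate 3. Results below use all 12 libraries, and the main ones are also given without GSK343+XL413 replicate 2. Leaving it out does not remove the trends of the other libraries. Of the genes listed as melanoma markers, SOX10 was at 296 to 370 CPM (library-scaled counts) and VIM at 2560.5 to 3029 CPM. AXL was at 338 to 486 CPM, MITF at 36.6 to 50.5 CPM and S100B at 22.0 to 28.4 CPM. The pigment genes TYR, MLANA, DCT and PMEL did not pass 1.12 CPM in any library. The defining leukocyte markers PTPRC, CD3E and ITGAM were at most at 0.201 CPM and the epithelial markers EPCAM and CDH1 at most at 0.224 CPM. Other listed markers were detected, with the fibroblast genes COL1A1 at 52.5 to 113 CPM and COL3A1 at 20.1 to 37.8 CPM. KRT8 at 46.1 to 55.0 CPM, KRT14 at 18.2 to 24.3 CPM and CD68 at 42.1 to 48.9 CPM were detected as well. These are bulk samples, in which fewer cells of a type and less RNA per cell cannot be told apart.

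Levels per transcript length, in CPM per kb of the longest transcript, spread over a wide range. The median was 4.21 CPM per kb over the members and 5.64 CPM per kb over the tested genes with a length. CEP55, a protein of the midbody that recruits the abscission machinery, was highest with 41.7 CPM per kb. CEP170, a microtubule-binding protein of the subdistal appendages, followed with 24.0 CPM per kb, and ASPM, which holds microtubule minus ends at the spindle poles, with 18.7 CPM per kb. These values stood clear of each other in each group except the combination, where CEP170 had 21.4 ± 4.15 and ASPM 14.8 ± 3.41 CPM per kb (SD, n = 3). At the low end were NINL, a ninein-like protein that binds gamma-tubulin complexes, at 0.478 CPM per kb, CEP162, a protein of axonemal microtubules needed for the transition zone, at 0.661 CPM per kb, and CEP19, a regulator of ciliogenesis, at 0.824 CPM per kb.

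**Figure D1:**
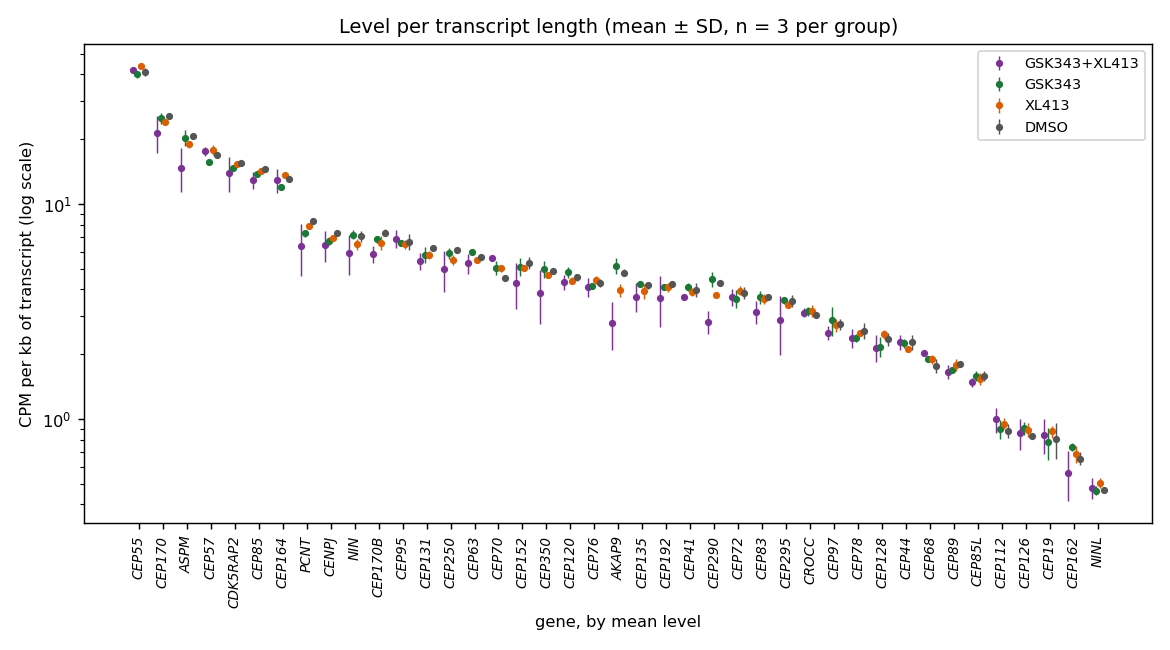
Level of 41 of the 42 genes in CPM per kb of the longest transcript on a log axis, as mean ± SD of 3 libraries in each of the 4 groups. CEP55 is highest at 41.7 CPM per kb over all libraries and NINL lowest at 0.478 CPM per kb.

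Across the 4 group means most members moved little. The highest group mean was a median of 1.14 times the lowest, and 12 of 42 members reached 1.2 times. Without GSK343+XL413 replicate 2 the median was 1.10, and the 5 members that reached 1.2 times were AKAP9 (1.61), CEP290 (1.48), CEP70 (1.24), ASPM (1.24) and CEP112 (1.21). The combination was the lowest group for 27 of 42 members with all libraries and for 19 without that library. The counts of this paragraph were not made over all tested genes, so whether they are particular to the members cannot be told.

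The comparison of both compounds with DMSO asked what the inhibitors change together. CEP290, AKAP9, ASPM and CEP170B fell and CEP70 rose, and 37 members were not called at an adjusted p under 0.05 in edgeR's quasi-likelihood test. The 5 called members are 11.9% of 42, and over all tested genes 13.9% were called. By direction, 7.25% of all genes were called lower and 6.69% higher. The median log2 fold change of the members was −0.13, against 0.01 over all tested genes. Of the 42 estimates, 32 (76.2%) were below 0, against 48.8% over all tested genes. Without GSK343+XL413 replicate 2 the members' median was −0.06, PCNT fell as well, and 6 of 42 members were called, with 15% over all genes. The count moved more under other settings: it was 15 without GSK343+XL413 replicate 3 (16.7% over all genes), 8 without replicate 1 (12.7%), 10 with a correction for transcript length (18.9%) and 13 with one for length and GC content, which was added after the data were seen (18.8%).

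CEP170B, also called in this comparison, had no entry in the promoter reference used. Promoter windows set by RefSeq starts are shown for CEP290, AKAP9, ASPM and CEP70, the other members called, to give their sequence context. They are the 250 bases before the start of the most upstream RefSeq transcript on GRCh38.p14, 5′ to 3′ on the gene's strand, and capitals mark the motifs searched on both strands: TTTGAA (the core of the cell cycle homology region), CCAAT (bound by NF-Y), and TTTCCCGC and TTTGGCGC (E2F sites). The windows are chr12:88142089-88142338 on the minus strand for CEP290, chr7:91940612-91940861 on the plus strand for AKAP9, chr1:197146670-197146919 on the minus strand for ASPM and chr3:138594261-138594510 on the minus strand for CEP70. RefSeq starts differ from the GENCODE gene positions given below. By those positions the CEP70 window lies wholly inside the gene. The CEP290 window lies partly inside its gene, with its TTTGAA, and the ASPM window reaches into its gene at the 3′ end.
CEP290: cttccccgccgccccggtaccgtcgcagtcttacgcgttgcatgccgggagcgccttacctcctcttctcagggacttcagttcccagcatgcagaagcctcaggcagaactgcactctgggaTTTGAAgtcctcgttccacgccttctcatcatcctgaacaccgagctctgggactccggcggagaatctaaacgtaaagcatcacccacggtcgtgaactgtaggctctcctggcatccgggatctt
AKAP9: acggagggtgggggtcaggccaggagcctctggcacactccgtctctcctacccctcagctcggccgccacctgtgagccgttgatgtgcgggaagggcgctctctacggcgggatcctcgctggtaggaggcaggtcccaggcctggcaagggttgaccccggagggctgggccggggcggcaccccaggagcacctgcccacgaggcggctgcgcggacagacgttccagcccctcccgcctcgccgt
ASPM: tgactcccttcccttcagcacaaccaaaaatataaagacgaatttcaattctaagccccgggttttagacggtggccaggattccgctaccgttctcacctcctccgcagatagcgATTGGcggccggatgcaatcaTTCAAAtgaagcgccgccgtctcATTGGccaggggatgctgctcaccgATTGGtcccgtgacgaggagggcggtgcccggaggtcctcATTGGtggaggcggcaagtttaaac
CEP70: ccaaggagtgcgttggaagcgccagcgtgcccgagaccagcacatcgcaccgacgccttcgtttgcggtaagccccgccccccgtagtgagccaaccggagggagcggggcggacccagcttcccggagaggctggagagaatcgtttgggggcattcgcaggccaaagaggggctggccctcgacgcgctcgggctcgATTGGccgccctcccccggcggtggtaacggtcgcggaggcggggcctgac
The CEP290 window holds 1 TTTGAA and the AKAP9 window none of the motifs, although a further RefSeq window of AKAP9 holds a TTTGAA. The ASPM window holds 5 hits, a TTTGAA and CCAAT boxes that are all on the reverse strand, and the CEP70 window holds 1 CCAAT. Of 37 members with a window, 11 (29.7%) held a TTTGAA, against 12.4% of 11261 tested genes with a window. CCAAT stood in 19 members (51.4%), against 41.7%, and an E2F motif in 1 member (2.70%), against 3.77%. These matches describe the letters in the windows, and the motifs do not overlap in the printed sequences.

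Among the pericentriolar scaffolds, AKAP9 moved most. AKAP9 anchors protein kinase A and gamma-tubulin complexes at the centrosome and the Golgi (chromosome 7, 91940867 to 92110673 of GRCh38, plus strand). It had 38.8, 25.0 and 41.2 CPM in the GSK343+XL413 libraries, 59.4, 63.4 and 70.0 CPM with GSK343, 53.2, 46.5 and 49.2 CPM with XL413, and 61.1, 57.0 and 60.7 CPM with DMSO. All 3 combination libraries lay below every other library, the second of them lowest, and the XL413 libraries lay below every DMSO library. The log2 fold change of the combination over DMSO was −0.77 ± 0.14 (SE; adjusted p = 0.00397 in edgeR's test), and −0.57 ± 0.07 without GSK343+XL413 replicate 2 (adjusted p = 0.000116).

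PCNT, pericentrin, tethers gamma-tubulin complexes and is with CDK5RAP2 a main scaffold of the mitotic pericentriolar material (chromosome 21, 46324122 to 46445769, plus strand). Its levels were 77.5, 46.2 and 77.3 CPM with both compounds, 73.6, 78.7 and 78.9 CPM with GSK343, 84.4, 80.5 and 84.8 CPM with XL413, and 87.3, 89.5 and 88.2 CPM with DMSO. Each treated group lay wholly below DMSO, and the second combination library lay far below all others. With all libraries no comparison called PCNT (combination against DMSO −0.40 ± 0.14, adjusted p = 0.0690). Without that library PCNT fell by 0.19 ± 0.04 on the log2 scale with both compounds (adjusted p = 0.00656) and by 0.19 ± 0.04 with GSK343 (adjusted p = 0.00586). The other scaffolds were not called: CEP192, which recruits Aurora A and PLK1, had −0.22 ± 0.13 with both compounds and −0.02 ± 0.06 without the deviating library, CDK5RAP2 had −0.16 ± 0.10 and −0.01 ± 0.04, and NINL had 0.04 ± 0.12 and −0.04 ± 0.15.

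**Figure D2:**
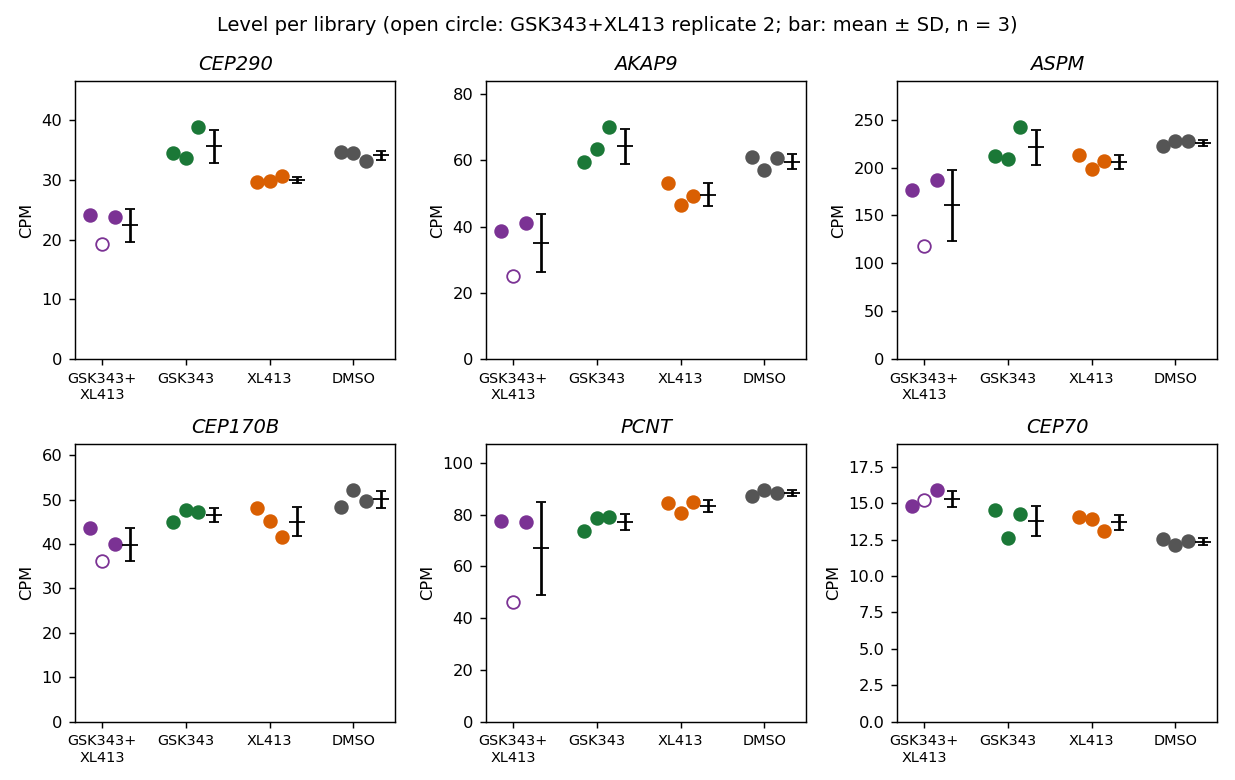
CPM of CEP290, AKAP9, ASPM, CEP170B, PCNT and CEP70 in each of the 12 libraries, by group, with the mean ± SD of 3 libraries to the right of the points and the open circle for GSK343+XL413 replicate 2. CEP290 and AKAP9 are lowest in the 3 combination libraries, and the open circle is the lowest point of every panel except that of CEP70.

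CEP290 had the smallest p of the members against DMSO. It is the large protein that links the axoneme to the membrane in the transition zone of the cilium and also sits in centriolar satellites, and its mutations cause ciliopathies with retinal disease (chromosome 12, 88049014 to 88142216, minus strand). It was at 24.1, 19.2 and 23.8 CPM with both compounds, 34.4, 33.6 and 38.8 CPM with GSK343, 29.6, 29.8 and 30.6 CPM with XL413, and 34.6, 34.4 and 33.2 CPM with DMSO. The combination libraries lay below all others, XL413 lay between them and DMSO without overlap, and GSK343 overlapped DMSO. The log2 fold change of the combination against DMSO was −0.61 ± 0.08 (adjusted p = 0.000859), and −0.50 ± 0.06 without GSK343+XL413 replicate 2 (adjusted p = 0.000109). CEP290 shares 401 exon bases with C12orf29 on the other strand, and the strand setting of the counting is not given in the sources used here; C12orf29 itself had 0.02 ± 0.04 (adjusted p = 0.755).

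CEP70, which binds gamma-tubulin and takes part in microtubule organization, went the other way (chromosome 3, 138494344 to 138594538, minus strand). It was at 14.8, 15.2 and 15.9 CPM with both compounds, 14.5, 12.6 and 14.3 CPM with GSK343, 14.1, 13.9 and 13.1 CPM with XL413, and 12.5, 12.1 and 12.4 CPM with DMSO. Each treated group lay above every DMSO library, and the combination lay above both single compounds. The combination gave 0.31 ± 0.07 (adjusted p = 0.00988), and 0.32 ± 0.07 without the deviating library (adjusted p = 0.0102). Of the 8 members in satellites, transition zone and cilium, 1 rose, 1 fell and 6 were not called, with 13.9% called over all genes. Among the 6 members not called, CEP131, a satellite protein, had −0.21 ± 0.08 (adjusted p = 0.0848).

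Of the 9 appendage members, CEP170B fell and 8 were not called, with 13.9% called over all genes. CEP170B, a paralog of CEP170, differs from the other members that fell in its GC content of 66.2%, against 35.9% for CEP290, 38.2% for AKAP9 and 37.1% for ASPM (chromosome 14, 104865280 to 104896770, plus strand). The members that fell have long transcripts, at 12471 nt for AKAP9, 10887 nt for ASPM, 7948 nt for CEP290 and 6813 nt for CEP170B. CEP70, which rose, has 2732 nt. CEP170B had 43.5, 36.1 and 40.1 CPM with both compounds, 44.8, 47.7 and 47.1 CPM with GSK343, 48.1, 45.2 and 41.6 CPM with XL413, and 48.4, 52.1 and 49.7 CPM with DMSO. Each treated group lay below every DMSO library, while the combination overlapped XL413. Its log2 fold change was −0.33 ± 0.07 against DMSO (adjusted p = 0.00891) and −0.26 ± 0.06 without the deviating library. CEP170 itself had 162, 114 and 163 CPM with both compounds, 164, 167 and 181 CPM with GSK343, 165, 164 and 163 CPM with XL413, and 171, 177 and 175 CPM with DMSO, where the combination and XL413 lay below every DMSO library and the second combination library far below. It gave −0.25 ± 0.10 (adjusted p = 0.116), and −0.09 ± 0.04 without that library. CEP164, the distal appendage protein that recruits the kinase TTBK2 to start a cilium, had −0.02 ± 0.07, and 0.08 ± 0.04 without it. NIN, ninein of the subdistal appendages, had −0.26 ± 0.12, and −0.09 ± 0.06 without it.

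None of the 13 members in centriole assembly was called, with 13.9% called over all genes. Of their 13 estimates 12 were below 0, against 48.8% over all tested genes. Their median log2 fold change was −0.13, and −0.06 without the deviating library. CEP350, a centriolar protein that binds microtubules, had −0.35 ± 0.15, CEP152, which recruits PLK4, had −0.32 ± 0.13, and CENPJ, which sets centriole length, had −0.18 ± 0.09. Without that library these values were −0.12 ± 0.06, −0.13 ± 0.08 and −0.05 ± 0.05. In the linker between the centrioles, CEP68 had 11.97, 11.70 and 11.92 CPM with both compounds, 10.79, 11.22 and 11.30 CPM with GSK343, 11.08, 11.51 and 10.55 CPM with XL413, and 11.05, 9.48 and 10.51 CPM with DMSO. The combination lay above all other libraries, but 0.20 ± 0.07 missed the threshold (adjusted p = 0.0727). CEP68 shares 757 exon bases with RAB1A on the other strand, which had −0.0046 ± 0.039. RAB1A averaged 187 CPM and CEP68 11.1 CPM, and whether RAB1A reads enter the CEP68 count was not tested. CEP250 had −0.30 ± 0.12, and −0.12 ± 0.05 without the deviating library. CROCC, rootletin, had 0.04 ± 0.06, and 0.08 ± 0.06 without it, and has pseudogenes in the table between which the reads are divided by estimate. The members outside these roles, CEP85L and CEP95, had −0.10 ± 0.07 and 0.05 ± 0.08, or −0.06 ± 0.08 and 0.03 ± 0.08 without it. CEP95, at 20.9 CPM, shares 506 exon bases with DDX5 on the other strand, which averaged 662 CPM, so its count is uncertain in the same way.

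ASPM is a cell cycle gene whose mRNA peaks in G2 and mitosis (chromosome 1, 197084128 to 197146694, minus strand). It was at 176, 118 and 187 CPM with both compounds, 212, 209 and 242 CPM with GSK343, 213, 198 and 207 CPM with XL413, and 222, 227 and 228 CPM with DMSO. The combination libraries lay below all others, and XL413 lay below DMSO. The combination gave −0.49 ± 0.12 against DMSO (adjusted p = 0.0203), and −0.31 ± 0.05 without the deviating library (adjusted p = 0.00161). The call with all libraries was lost without DMSO replicate 1, 2 or 3, with adjusted p up to 0.0657, and in a fit of the combination and DMSO alone (adjusted p = 0.0961).

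CEP55, also a gene of G2 and mitosis, had 111, 108 and 114 CPM with both compounds, 110, 106 and 101 CPM with GSK343, 115, 115 and 116 CPM with XL413, and 104, 110 and 112 CPM with DMSO. XL413 lay above every DMSO library, and the other groups overlapped DMSO. Its change with both compounds was 0.03 ± 0.04 (adjusted p = 0.665). Beside this pair, 5 of 13 G2/M companion genes rose and 3 fell with both compounds, and 7 rose and 3 fell without the deviating library, against 13.9% and 15% of all genes called in either direction. Those that fell, MKI67, CENPF and CENPE, are the ones with the longest transcripts of the 13, at 12678, 10307 and 8612 nt, and their log2 fold changes were −0.76, −0.58 and −0.80, or −0.50, −0.38 and −0.64 without the deviating library. ASPM has a transcript of 10887 nt and CEP55 of 2638 nt. The companions that rose were HMMR (3102 nt, 0.52, or 0.55 without that library), CDK1 (1948 nt, 0.44 or 0.42), UBE2C (914 nt, 0.51 or 0.43), CCNB2 (2503 nt, 0.27 or 0.24) and CCNB1 (2169 nt, 0.16 or 0.15). TOP2A, the next longest of the 13 at 5758 nt, had 0.18 and was not called (adjusted p = 0.107), but rose by 0.28 without that library, as did BUB1 (3576 nt) by 0.13. The part of cell cycle stage and of transcript length in the values of ASPM was not tested.

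**Figure D3:**
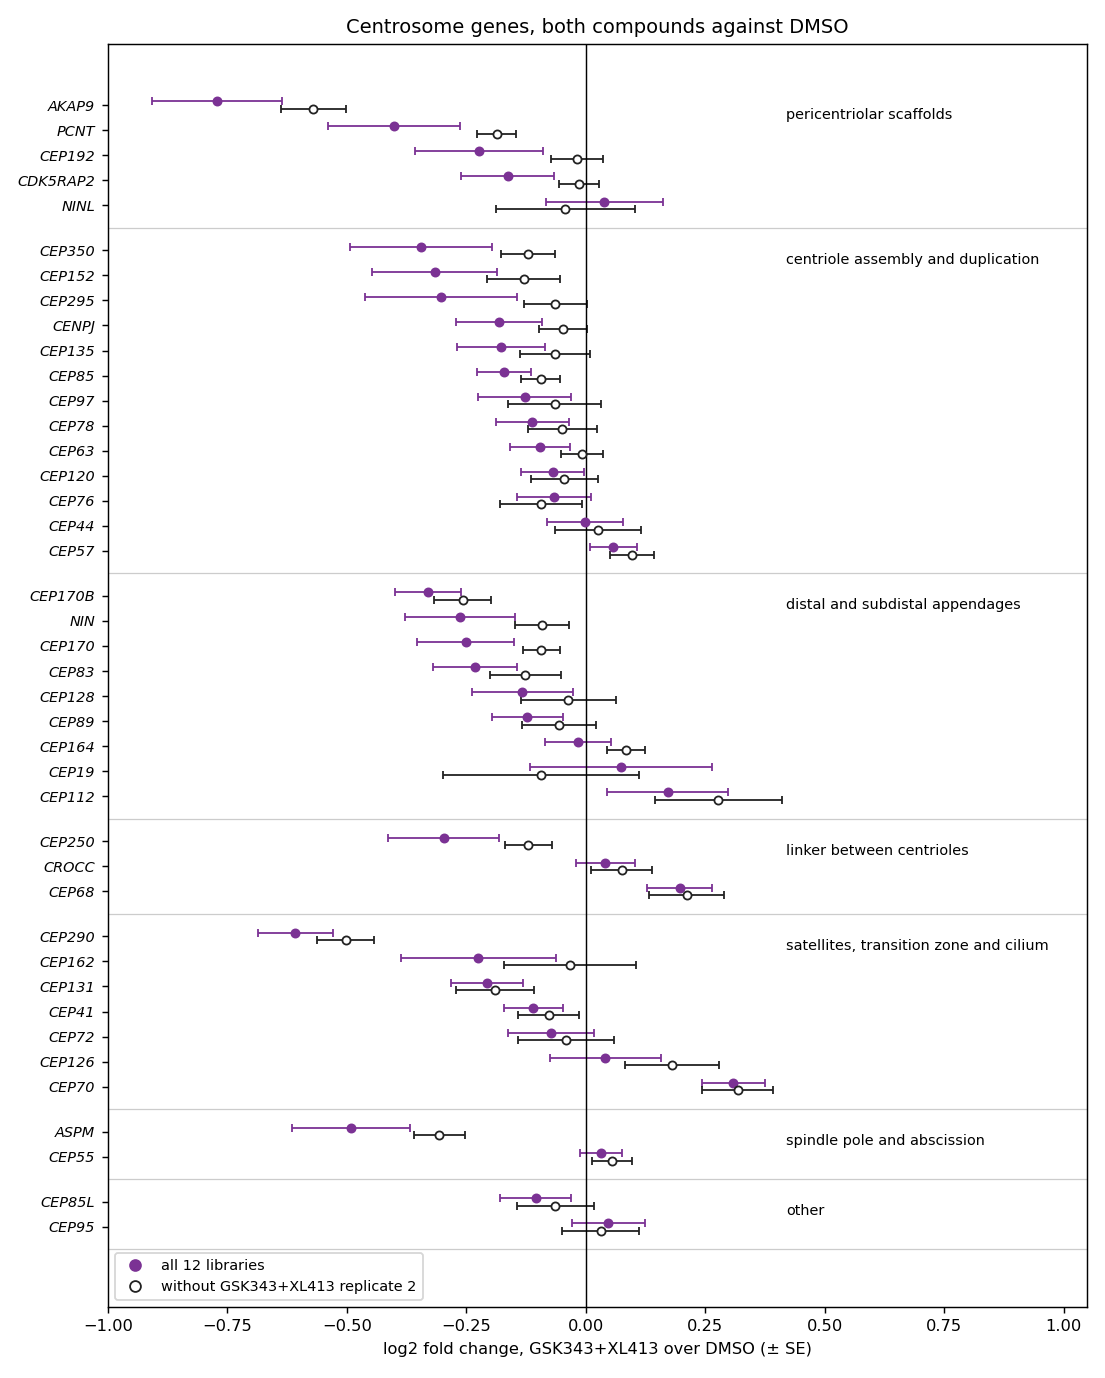
Log2 fold change ± SE of 41 of the 42 genes, both compounds over DMSO, grouped by role, with all 12 libraries (filled) and without GSK343+XL413 replicate 2 (open). AKAP9, CEP290 and ASPM lie lowest and CEP70 highest in both, and the median of all 42 genes is −0.13 in the filled and −0.06 in the open points.

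Transcript length moved with the result. Over the 42 members, GSK343+XL413 replicate 2 deviated from replicates 1 and 3 by −0.83 for CEP295, which turns new centrioles into centrosomes, to 0.44 for CEP19, with a median of −0.24 and with 38 members below 0. The deviation and the length had a Spearman's rho of −0.66 (n = 42 genes, which share this library). The log2 fold changes of the combination against DMSO had a rho with length of −0.63 over the members and −0.33 over 14961 genes, and of −0.40 and −0.11 without this library. For XL413 against DMSO, which does not involve that library, rho was −0.57 over the members and −0.20 over all genes. For GSK343 against DMSO it was 0.12 with length and −0.46 with GC content over the members. After a correction of each library for length, CEP290 had −0.51 ± 0.05, AKAP9 −0.65 ± 0.07, ASPM −0.38 ± 0.06, CEP170B −0.25 ± 0.05 and CEP70 0.29 ± 0.07, each with an adjusted p under 0.05, and PCNT −0.30 ± 0.08 (adjusted p = 0.0142).

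**Figure D4:**
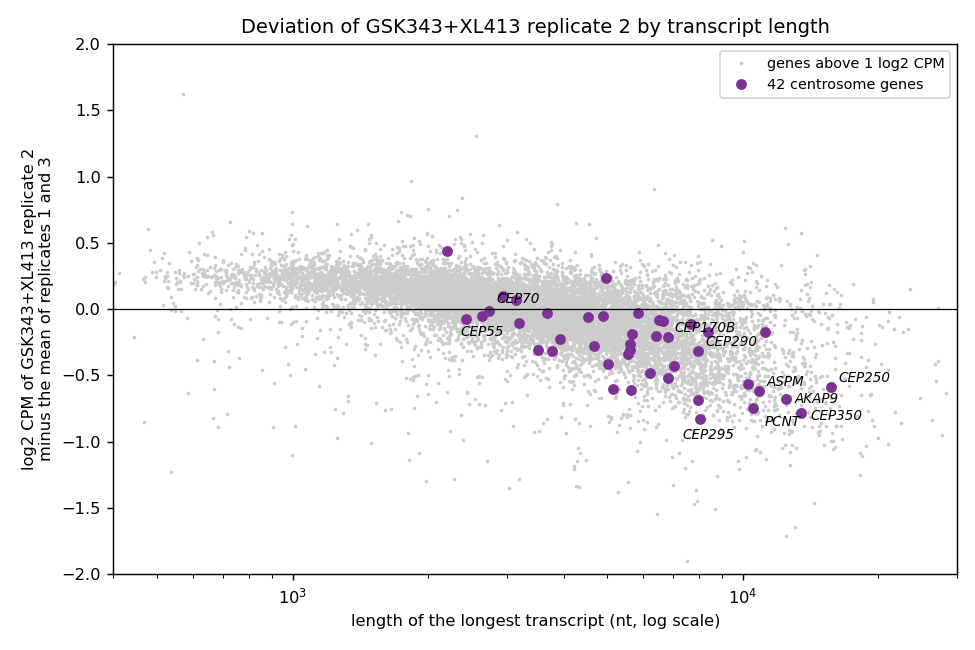
Deviation of GSK343+XL413 replicate 2 from the mean of replicates 1 and 3 in log2 CPM, against the length of the longest transcript in nt on a log axis, for genes above 1 log2 CPM (grey) and the 42 centrosome genes (purple). The deviation falls with length, and 38 of the 42 genes lie below 0.

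Each compound was then compared with DMSO on its own. With GSK343, 0 of 42 members were called in edgeR's quasi-likelihood test, against 1.17% of all genes, and DESeq2 also called 0. At an unadjusted p under 0.05, CEP70 was higher and CEP57 lower. This cut was met by 4.76% of the members, fewer than the 14.3% over all tested genes. CEP57, which stabilizes the attachment of the pericentriolar material, had 48.4, 49.5 and 50.9 CPM with GSK343 and 53.6, 52.5 and 55.2 CPM with DMSO. All GSK343 libraries lay below DMSO, with −0.12 ± 0.05 (adjusted p = 0.298). CEP70 had 0.16 ± 0.07 (adjusted p = 0.293), CEP68 had 0.10 ± 0.07 (adjusted p = 0.555), and PCNT had −0.20 ± 0.14. Without GSK343+XL413 replicate 2, which widens the shared estimate of the spread, PCNT was the member called, and 6.15% of all genes were called.

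With XL413, 0 of 42 members were called by edgeR and 0 by DESeq2, against 0.427% of all genes by edgeR. At an unadjusted p under 0.05, CEP70 was higher (0.15 ± 0.07, adjusted p = 0.348), and CEP290 (−0.18 ± 0.08, adjusted p = 0.317) and CEP170B (−0.16 ± 0.07, adjusted p = 0.336) were lower. This cut was met by 7.14% of the members, fewer than the 13.7% over all tested genes. AKAP9 had −0.26 ± 0.13 (adjusted p = 0.410), and −0.25 ± 0.06 without GSK343+XL413 replicate 2, where it fell (adjusted p = 0.0239) and where 4.85% of all genes were called. CEP55 had 0.09 ± 0.04 (adjusted p = 0.410). In 10 members the 3 XL413 libraries lay below all DMSO libraries and in 4 above, against 16.2% and 11.9% of all genes. For the combination these counts were 14 below and 2 above, against 17.4% and 16.3%, and for GSK343 8 below and 4 above, against 14% and 11.2%.

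**Figure D5:**
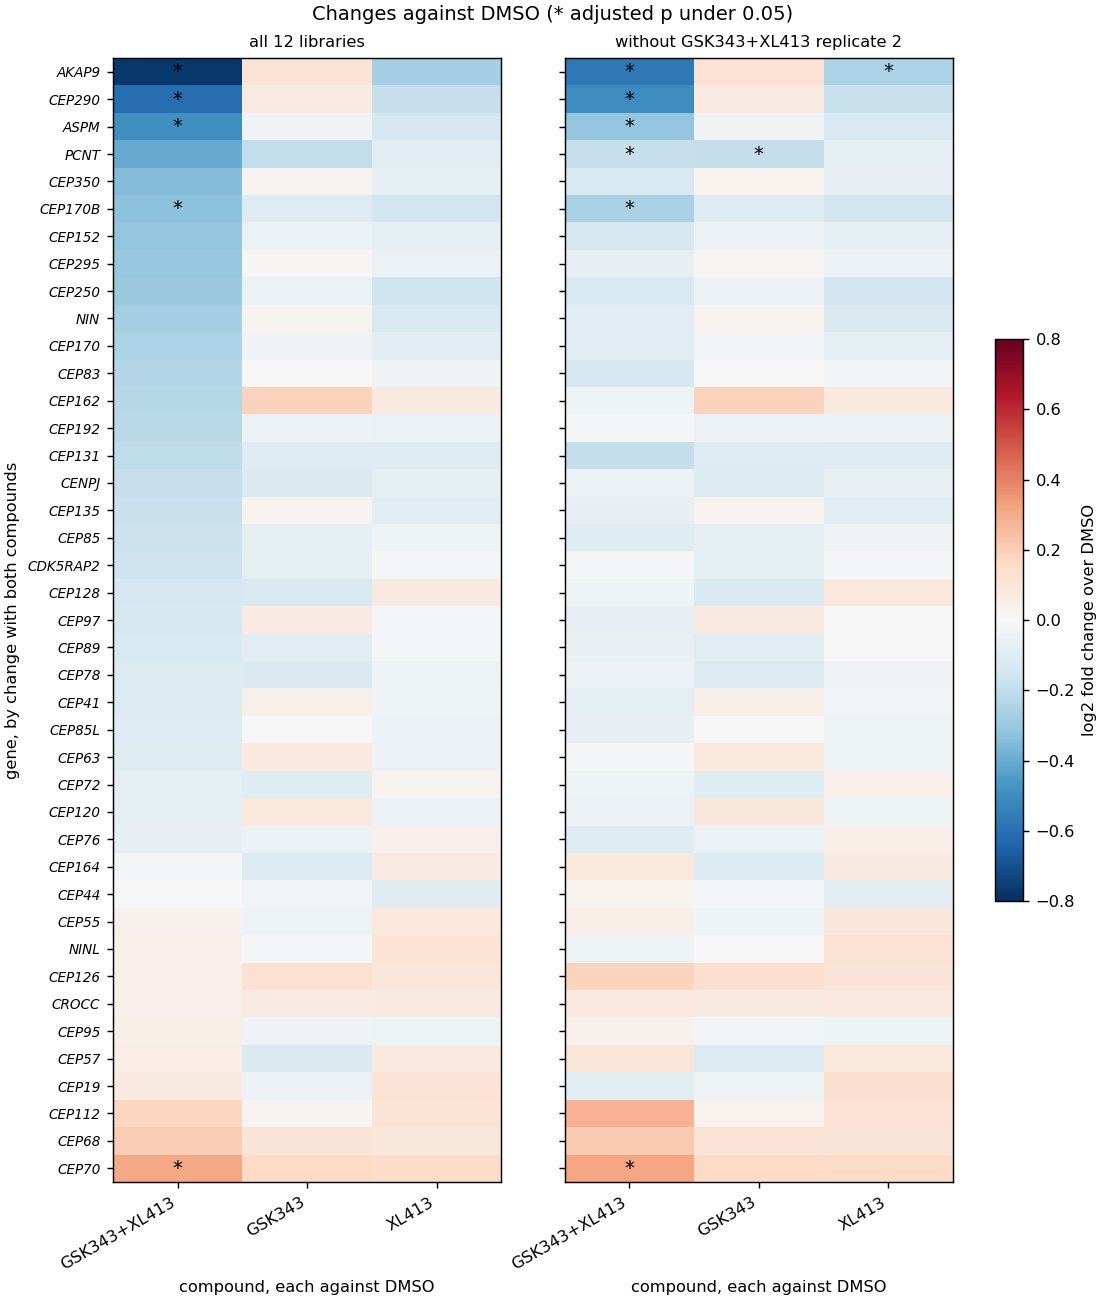
Log2 fold change of 41 of the 42 genes against DMSO with both compounds, with GSK343 and with XL413, using all 12 libraries (left) and without GSK343+XL413 replicate 2 (right), with genes ordered by the change with both compounds and asterisks at adjusted p under 0.05. The asterisks of the left panel are 5, all with both compounds, and the right panel adds PCNT with both compounds and with GSK343 and AKAP9 with XL413.

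Adding GSK343 to XL413 was measured as the combination against XL413. CEP290 fell by 0.42 ± 0.08 on the log2 scale (adjusted p = 0.0265) and 41 members were not called, with 0.784% called over all genes. This call was lost without XL413 replicate 1, 2 or 3 and without DMSO replicate 1, with adjusted p of 0.0501 to 0.121, and in a fit of the 2 groups alone (adjusted p = 0.237). AKAP9 had −0.51 ± 0.14 (adjusted p = 0.122), and −0.32 ± 0.07 without GSK343+XL413 replicate 2, where it fell together with CEP290 (adjusted p = 0.0341 and 0.0116, 1.62% of all genes called). CEP70 had 0.16 ± 0.07 (adjusted p = 0.272) and CEP68 0.10 ± 0.07 (adjusted p = 0.498).

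Adding XL413 to GSK343 was measured as the combination against GSK343. AKAP9 fell by 0.88 ± 0.14 (adjusted p = 0.00914) and CEP290 by 0.67 ± 0.08 (adjusted p = 0.00201), and 40 members were not called, with 0.984% called over all genes. The AKAP9 call was lost without GSK343 replicate 3 (adjusted p = 0.0544), and a fit of the 2 groups alone called neither AKAP9 (adjusted p = 0.222) nor CEP290 (adjusted p = 0.120). ASPM had −0.46 ± 0.12 (adjusted p = 0.0829). Without GSK343+XL413 replicate 2, AKAP9 (−0.68 ± 0.07), CEP290 (−0.57 ± 0.06) and ASPM (−0.28 ± 0.05, adjusted p = 0.0147) fell, and CEP164 (0.19 ± 0.04, adjusted p = 0.0222) and CEP57 (0.21 ± 0.05, adjusted p = 0.0338) rose, with 1.56% of all genes called. CEP164 had 75.0, 62.5 and 79.9 CPM with both compounds and 67.6, 69.7 and 66.1 CPM with GSK343, and the second combination library lay below all 3 GSK343 libraries. CEP57 had 56.1, 53.3 and 58.5 CPM with both compounds, above all GSK343 libraries, and 56.4, 54.1 and 59.7 CPM with XL413. CEP70 had 0.15 ± 0.07 (adjusted p = 0.218).

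Whether the effects of the compounds add up on the log2 scale was tested with the interaction. edgeR called 0 of 42 members and 0% of all genes, and DESeq2 called 0 members. At an unadjusted p under 0.05, 0 members were above and 2 below, which is 4.76% of 42, against 2.67% over all tested genes. CEP290 had −0.49 ± 0.11 (unadjusted p = 0.000705) and AKAP9 −0.62 ± 0.19 (unadjusted p = 0.00621), and for both the adjusted p was 0.989. Without GSK343+XL413 replicate 2 they had −0.39 ± 0.08 and −0.43 ± 0.09, with an adjusted p of 0.841. CEP57 had 0.10 ± 0.07 and CEP95 0.12 ± 0.11. These estimates share the DMSO and single-compound libraries with the comparisons above.

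The other genes of the centrosome came from a list of 61, of which 60 were tested. They gave 4 rises and 8 falls with both compounds against DMSO, where 6.69% of all genes were called higher and 7.25% lower. Without the deviating library they gave 6 rises and 8 falls, where 15% of all genes were called in either direction. TUBG1, gamma-tubulin itself, fell by 0.23 ± 0.03 on the log2 scale (adjusted p = 0.00146), PLK1, which drives growth of the pericentriolar material, by 0.19 ± 0.03 (adjusted p = 0.0035), KIF11, the kinesin that separates the spindle poles, by 0.24 ± 0.06 (adjusted p = 0.0150) and CCP110, which caps centrioles with CEP97, by 0.26 ± 0.06 (adjusted p = 0.0171). The genes that rose were CETN2, AURKA, POC1B and NEK2. With GSK343, 0 rose and 3 fell: PLK1 by 0.19 ± 0.03, TUBG1 by 0.17 ± 0.03 and AURKA by 0.14 ± 0.03, with 1.17% called over all genes. Without the deviating library 1 rose and 8 fell, with 6.15% called over all genes. With XL413, 1 rose, AURKA, the gene of Aurora A, by 0.21 ± 0.03 (adjusted p = 0.00638), and 0 fell, with 0.427% called over all genes. Without that library 5 rose, among them AURKA and NEK2, and 2 fell, TUBGCP5 and CCP110, with 4.85% over all genes. Adding GSK343 to XL413 lowered PLK1 by 0.16 ± 0.03 (adjusted p = 0.0396), and AURKA was higher by 0.25 ± 0.03 in the combination than with GSK343 (adjusted p = 0.00201). The median log2 fold change of the list with both compounds was −0.04, and −0.0074 without that library.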

How the data were processed

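The deposited table holds expected counts per gene, unscaled between libraries. The submitters' processing notes name Bowtie2 2.1.0, RSEM 1.2.15 and hg38, and no annotation or strand setting. Ambiguous reads are divided by estimate in such counts, so close copies and overlapping genes are uncertain. Counts were rounded and fitted in R 4.3.3 with edgeR 4.0.16 (filterByExpr, minimum count 10, TMM, quasi-likelihood, 1 coefficient per group, 8 residual degrees of freedom). P-values were two-sided and adjusted by Benjamini-Hochberg over 15443 genes, with calls under 0.05. SE is the log2 fold change over the root of F. CPM use effective library sizes. Gene positions, GC content and lengths are GENCODE 29 on GRCh38, with 23872 names matched directly and 725 through older symbols. Code was tested on simulated data. Alternatives included DESeq2 1.42.0, limma 3.58.1 (voom), other scalings and filters, leaving out each library, and corrections for length and GC. Members, role groups, companion lists and alternatives were chosen with earlier results of these data known. Genes described by library were, per comparison, those called with or without GSK343+XL413 replicate 2, those with the smallest p in each direction where few were called, and the 3 highest per length. CEP350, CEP152, CENPJ, CEP131 and other examples by role were added after their values were seen. Values of 1 member and 1 leukocyte marker are not reported here; the member is in every count and median but in no plot with gene names.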

Additional observations from a re-analysis of the deposited data

How the results depend on the processing

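Of 846 values under other settings, 775 stayed the same. For genes this means the same direction and side of the threshold, and for counts of called members within 1.5 times. Most of the gene results were not called in the main fit, so staying the same mostly means remaining not called. A further 12 values were no longer called, 33 became called, 26 counts moved by over 1.5 times or to or from 0, and 0 reversed. With both compounds against DMSO, CEP290, AKAP9, CEP170B and CEP70 were called under every setting run. The other calls of the main fit were each lost under some setting: ASPM against DMSO, CEP290 against XL413, and AKAP9 and CEP290 against GSK343. Counts of called members moved as follows, each with the share called over all genes in the same setting. For the combination against DMSO (5), the length correction gave 10 (18.9%), length with GC 13 (18.8%), and length without GSK343+XL413 replicate 2 gave 8 (19.0%). The fits with GC, and with length but without that library, were added after the data were seen. Leaving out each library gave 4 to 15, with 15 without GSK343+XL413 replicate 3 (16.7%), 8 without replicate 1 (12.7%) and 4 without a DMSO replicate (5.44 to 7.22%). For XL413 (0), a fit of the compared groups alone gave 4 (9.30%), length without replicate 2 gave 2 (8.19%), and leaving out a library gave 0 to 1 (0.102 to 4.85%). For GSK343 (0) these were 1 (2.81%), 2 (10.8%) and 0 to 1 (0.237 to 6.15%). For the combination against XL413 (1), DESeq2 gave 2 (2.60%), both corrections 3 (3.16% for length, 2.67% with GC), the compared groups alone 0 (0.119%), length without replicate 2 gave 4 (3.84%), and leaving out a library 0 to 2 (0.256 to 1.62%). For the combination against GSK343 (2), length with GC gave 4 (4.09%), the compared groups alone 0 (0%), length without replicate 2 gave 5 (3.35%), and leaving out a library 1 to 5 (0.224 to 2.23%). The cause was not tested. With the replicate number as a block, counts were 0 for XL413, 0 for GSK343, 5 for the combination, 1 and 2 against the single compounds, and 0 for the interaction. Of 18 same-numbered pairs of libraries from different groups, 4 correlated over 0.1 (r −0.42 to 0.34). Among 36 pairs with different numbers, 13 did so (r −0.33 to 0.31). These correlations cannot tell whether the replicate numbers mark a shared batch. Depth was 31553205 or more counts, and the median SE of a member's log2 fold change against DMSO was 0.089 with both compounds, which limits the changes that can be called.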
